A study of Mus musculus with 3 samples.

Results

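The heat shock proteins and their transcription factor HSF1 were followed on 3 arrays through 10 genes, *Hspa1a*, *Hspa1b*, *Hspa8*, *Hsp90aa1*, *Hsp90ab1*, *Hspb1*, *Hsph1*, *Dnajb1*, *Hspd1* and *Hsf1*, of the 26840 genes with a symbol on the array. The members were taken by gene name, and 18 probes of 60 bases carried one of those names, each printed as 1 spot. The cells were RAW 264.7, an established mouse macrophage line, so all values describe 1 cell line in culture. Total RNA of each group was labelled with Cy3 and hybridised to 1 array. The LPS group received 50 ng/mL of lipopolysaccharide, the Gram-negative cell wall component that activates Toll-like receptor 4, and no bacteria. The CRL1505 group was first incubated for 24 h with *Lacticaseibacillus rhamnosus* CRL1505 and the CRL1506 group with *Lactiplantibacillus plantarum* CRL1506, at 50000000 bacteria per mL, then washed and given the same LPS. LPS was left on for 12 h according to the series text, whereas the sample descriptions say 3 h. All 3 groups thus carried LPS, and cells without it were not analysed here.

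Heat shock proteins are chaperones: they bind unfolded or client proteins, hold them soluble and help them to fold. HSF1, the heat shock transcription factor, is kept inactive by chaperones in resting cells. When misfolded proteins draw those chaperones away, it forms trimers and binds heat shock elements, arrays of the unit GAA and its reverse complement TTC in alternating orientation, in the promoters of the inducible chaperone genes. In macrophages, HSP90 keeps many signalling kinases and receptors in a folded state, and HSF1 is also known for its effects on cytokine genes.

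Promoter stretches that hold such elements are shown first because they belong to inducible genes of this family. RefSeq promoter windows on GRCm38, each running from 250 bases before to 50 bases after a transcription start, were matched for 6 of the 10 genes. *Hspa8*, *Hsp90aa1*, *Hsp90ab1* and *Hsf1* were not matched. Capitals mark the joined units, and each stretch is written 5′ to 3′ on the strand of its gene. *Hspa1a* (chr17:34972231-34972290, minus strand) and *Hspa1b* (chr17:34959313-34959372, minus strand), the paired genes of the inducible HSP70, were identical from base -134 to base -75 before the start, and their whole windows differed at 4 of 300 positions. *Hspb1* (chr5:135887786-135887845, plus strand) held a pair of 2-unit elements. *Hspd1* (chr1:55088038-55088097, minus strand) held 4 units in a row, and *Hsph1* (chr5:149636280-149636309, minus strand) held 3 units just after its start.
Hspa1a: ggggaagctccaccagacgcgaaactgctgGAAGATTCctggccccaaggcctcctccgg
Hspa1b: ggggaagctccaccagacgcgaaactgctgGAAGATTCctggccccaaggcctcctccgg
Hspb1: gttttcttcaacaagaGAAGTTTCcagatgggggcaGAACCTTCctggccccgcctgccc
Hspd1: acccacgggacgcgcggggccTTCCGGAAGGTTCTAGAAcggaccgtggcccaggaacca
Hsph1: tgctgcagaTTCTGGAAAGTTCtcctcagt

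Searched on both strands, the 2-unit elements GAANNTTC and TTCNNGAA, where N is any base, occurred in 7.86% and 8.52% of all 32851 windows, and 15.1% of windows held at least 1 of them. Of the 6 matched genes 5 did, *Dnajb1* being without a match in both of its windows. The 3-unit elements GAANNTTCNNGAA and TTCNNGAANNTTC, which contain the 2-unit ones, were together found in 0.603% of windows and here in those of *Hsph1* and *Hspd1*. The 4-unit element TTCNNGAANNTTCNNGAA occurred in 5 of all windows. Its letters in *Hspd1*, at bases -144 to -127 of one of 2 annotated starts, were the same DNA as bases -89 to -72 of *Hspe1* on the other strand. *Hspe1* encodes the co-chaperonin partner of HSPD1, and the 2 genes are transcribed away from each other from starts 216 bases apart, whereas the other *Hspd1* start lies 95 bases past that of *Hspe1*, so that transcripts from it overlap. These matches are letters in a window, and no binding of HSF1 was measured.

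**Figure D1:**
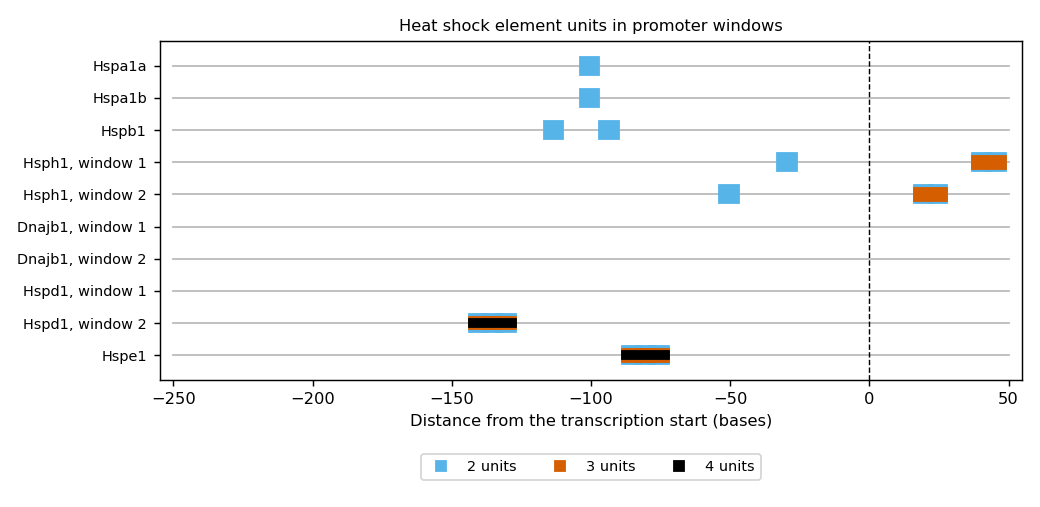
Positions of heat shock element units in the RefSeq promoter windows of *Hspa1a*, *Hspa1b*, *Hspb1*, *Hsph1*, *Dnajb1*, *Hspd1* and *Hspe1*, as the distance in bases from the transcription start (dashed line), with boxes coloured by the number of joined units. The 4-unit run of *Hspd1* lies at -144 to -127 and is the run that *Hspe1* holds at -89 to -72, and both *Dnajb1* windows are empty.

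Levels are given as the log2 of the processed signal minus the 75th percentile of the same array, so a level compares 1 probe between arrays and never 1 gene with another. The 75th percentile lay at a signal of 743.1 for LPS, 517.0 for CRL1505 and 697.9 for CRL1506, and 54.5%, 48.5% and 55.3% of 59305 gene spots were well above background. The dimmest spots well above background had log2 levels of -4.48, -4.12 and -4.40, and no spot was saturated. All 8 macrophage markers, among them *Adgre1*, *Csf1r* and *Lyz2*, were detected on every array, and none of the 3 epithelial ones was, although 1 or 2 of 3 T cell markers, 1 of 3 B cell markers and, on the CRL1505 and CRL1506 arrays, 1 and 2 of 3 fibroblast markers were also above background, and their part in the results was not tested. With 1 array per group there was no test: a gene was counted as higher or lower where its brightest probe differed by at least 2-fold. Spots of the same probe printed 10 times on an array gave log2 ratios with a median SD of 0.049 for CRL1505 against LPS and 0.046 for CRL1506 against LPS, and different probes of the same gene a median SD of 0.228 and 0.215. Neither figure holds the spread between cultures. The LPS and CRL1506 arrays shared a slide and a scan while CRL1505 lay on another, so the CRL1505 treatment and the slide cannot be told apart. Scaling mattered as well: over 7 other ways of scaling, the median log2 ratio of all genes ranged from -0.571 to 0.353 for CRL1505 against LPS and from -0.265 to 0.021 for CRL1506 against LPS, against 0.057 and -0.065 here. Of the genes past 2-fold, 54.1% were higher for CRL1505 against LPS, 61.6% for CRL1506 against LPS and 54.6% for CRL1505 against CRL1506. Scaling by the median made these 76.1%, 43.4% and 89.1%, and scaling by spike-in probes 14.8%, 52.6% and 16.9%. Quantile normalization gave 51.4% for CRL1506 against LPS, and for CRL1505 against CRL1506 cyclic loess gave 66.0% and the 75th percentile of probes detected on all arrays 36.4%.

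Transcripts of the inducible HSP70 and of HSPB1 were not detected in any of the 3 groups. *Hspa1a* and *Hspa1b*, which HSF1 strongly induces in heat-shocked cells, and *Hspb1*, the small heat shock protein HSP27 that binds unfolding proteins without ATP, were not well above background on the LPS, CRL1505 or CRL1506 array. The *Hspa1a* probe had log2 levels of -6.57, -6.15 and -6.43 on these arrays. The *Hspa1b* probe had log2 levels of -5.67, -5.21 and -6.51. The *Hspb1* probe had log2 levels of -6.69, -5.37 and -6.58. All 9 values lay below the dimmest level called well above background on their own array, so no ratio between groups is given for these genes. In signal units the spots read between 7.2 and 14.6, where the dimmest spots called above background read 29.6 to 33.3. A low transcript level and a probe that reports its transcript poorly cannot be told apart with 1 probe per gene, nor, in RNA from a whole culture, fewer expressing cells and less RNA per cell.

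These 3 readings rest on the probes whose first 30 of 60 bases are given here, with their positions on mm9, the build of the array design. The *Hspa1a* probe is at chr17:35106766-35106825 and the *Hspa1b* probe at chr17:35093374-35093405, both on the minus strand, and the coordinates of the latter cover 32 of its bases. The *Hspb1* probe is at chr5:136365366-136365425 on the plus strand. Though the 2 HSP70 genes are near-identical copies, the longest run of bases that their probes share is 5, and no member probe shared a run of 20 bases with a probe of another gene among all 56605. Whether these positions are exon or UTR was not analysed here.
Hspa1a probe: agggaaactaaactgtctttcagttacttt
Hspa1b probe: taatctaagtaggttaaagatggtgtagtc
Hspb1 probe: gctcttttgatacatacatttacctgctgt

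**Figure D2:**
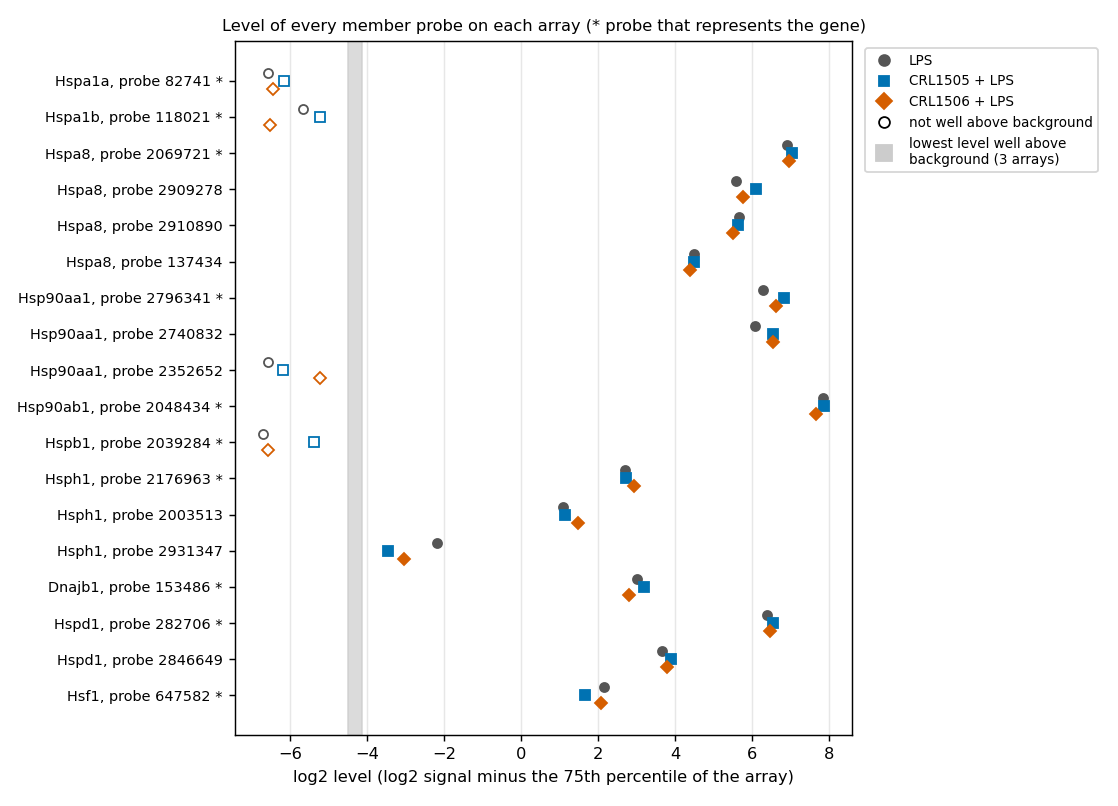
Log2 level (log2 signal minus the 75th percentile of the array) of all 18 probes of the 10 genes on the LPS, CRL1505 + LPS and CRL1506 + LPS arrays, 1 spot per point, with open symbols for spots not well above background and a grey band over the dimmest levels above background on the 3 arrays. The probes of *Hspa1a*, *Hspa1b* and *Hspb1* and 1 of *Hsp90aa1* lie to the left of the band on every array, and the other 14 lie to its right.

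*Hsf1* itself was detected on every array and was lower with CRL1505. Its only probe (chr15:76331176-76331235, plus strand, mm9), which starts with ccagtggagcacagatggaacttggtcctg, had log2 levels of 2.15 for LPS, 1.66 for CRL1505 and 2.07 for CRL1506. The CRL1505 array was the low one, and the LPS and CRL1506 arrays, which shared a slide, were close together. CRL1505 treatment and slide cannot be told apart here. Against CRL1506 the CRL1505 log2 ratio was -0.40, and it was below 0 in 6 of the 7 other scalings, with 0.09 under median scaling. The level was 1.4-fold lower with CRL1505 than with LPS, a log2 ratio of -0.49, and the log2 ratio of CRL1506 to LPS was -0.08. Under the 7 other scalings the CRL1505 ratio lay between -1.12 and -0.19, below 0 in all 7, and relative to the median of all genes between -0.62 and -0.54. The difference is larger than the median SD between probes of a gene, yet 38.9% of all genes measured on both arrays had a log2 ratio at least that large in size. *Hsf2*, the second heat shock factor of most tissues, had log2 levels of -0.12, -0.53 and -0.17 and a CRL1505 log2 ratio of -0.41. The order was that of *Hsf1*, with CRL1505 lowest except under median scaling, where its log2 ratio to CRL1506 was 0.14. Levels of *Hsf1* mRNA say nothing of the trimer state of the protein, which is where HSF1 is known to be controlled.

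*Hsp90aa1*, which encodes the stress-responsive cytosolic HSP90, was higher with both strains, except for CRL1505 under spike-in scaling. Its CRL1505 ratio was the largest in size among the members as scaled here and by the median, and that of *Hsf1* was larger under the other 6 scalings. Its brightest probe had log2 levels of 6.28 for LPS, 6.83 for CRL1505 and 6.61 for CRL1506. LPS alone was the lowest of the 3. The levels were 1.47-fold and 1.26-fold those of LPS, log2 ratios of 0.55 and 0.33. A second probe had log2 levels of 6.07, 6.54 and 6.53 and gave log2 ratios of 0.47 and 0.46. Both probes thus placed LPS lowest, but the difference between the strains was 0.22 by the first and 0.01 by the second. By the first, CRL1505 was above CRL1506 in 2 of the 7 other scalings, with log2 ratios from -0.30 to 0.72. The ratio of CRL1506 was above 0 under all 7 other scalings, from 0.13 to 0.54, and that of CRL1505 under 6, from 0.39 to 0.85, with -0.08 under spike-in scaling. Against the median of all genes, which spike-in scaling also lowered, the CRL1505 ratio was 0.36 to 0.49 and the CRL1506 ratio 0.40 to 0.59. Of all genes measured on both arrays compared, 34.2% and 36.2% had ratios at least as large in size. Another probe under this symbol, designed on an expressed sequence tag, was not well above background, with log2 levels of -6.57, -6.18 and -5.23. The 60 bases of the brightest probe, as across a splice junction, span 286 bases of the genome (chr12:111932511-111932796, minus strand, mm9).
Hsp90aa1 probe: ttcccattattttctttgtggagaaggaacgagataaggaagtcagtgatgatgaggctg

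*Hsp90ab1*, the constitutive HSP90 gene, differed little between the groups. Its probe (chr17:45704788-45704847, minus strand, mm9) had log2 levels of 7.85 for LPS, 7.87 for CRL1505 and 7.65 for CRL1506. The CRL1505 log2 ratio of 0.02 was below 0 in 6 of the 7 other scalings, from -0.61 to 0.32. The CRL1506 log2 ratio of -0.20 stayed below 0 in all 7, from -0.40 to -0.04, and was smaller in size than the median SD between probes of a gene.

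*Hspa8*, the constitutive HSC70 that folds new proteins and strips clathrin from vesicles, was measured by 4 probes on all arrays. The brightest had log2 levels of 6.89 for LPS, 7.04 for CRL1505 and 6.95 for CRL1506, and the 3 groups lay close together. Its log2 ratios were 0.15 for CRL1505 and 0.06 for CRL1506, and both changed sign with the scaling, from -0.48 to 0.44 and from -0.14 to 0.25. The other 3 probes gave CRL1505 log2 ratios of 0.54, -0.01 and -0.02 and CRL1506 log2 ratios of 0.17, -0.15 and -0.12. The probes of *Hspa8* therefore disagree in sign for both strains, and no direction is given for this gene. The brightest probe spans 296 bases (chr9:40612755-40613050, plus strand, mm9), and its bases are printed because the *Hspa8* level rests on it.
Hspa8 probe: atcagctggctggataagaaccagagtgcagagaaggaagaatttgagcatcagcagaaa

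The partners that set the HSP70 cycle were measured too. *Dnajb1*, the J-domain protein HSP40 that delivers substrates to HSP70 and helps to disassemble HSF1 trimers, had log2 levels of 3.02 for LPS, 3.20 for CRL1505 and 2.80 for CRL1506. CRL1505 was the highest and CRL1506 the lowest, with log2 ratios to LPS of 0.18 and -0.22. The former ranged from -0.45 to 0.48 over the other scalings, and the latter stayed below 0, from -0.42 to -0.08. The log2 ratio of CRL1505 to CRL1506 was 0.41, or 1.32-fold, and was above 0 in 6 of 7 scalings, with -0.11 under spike-in scaling.

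*Hsph1*, the HSP110 that exchanges nucleotide on HSP70, had log2 levels of 2.69 for LPS, 2.73 for CRL1505 and 2.94 for CRL1506 by its brightest probe, CRL1506 being the highest except under median scaling, where the log2 ratio of CRL1505 to CRL1506 was 0.29 in place of -0.20. A second probe, with 1.08, 1.14 and 1.49, gave the same order. The CRL1506 log2 ratios were 0.25 and 0.40, and that of the brightest probe was above 0 in all 7 other scalings, from 0.05 to 0.34. The third *Hsph1* probe went the other way. It had log2 levels of -2.18 for LPS, -3.46 for CRL1505 and -3.03 for CRL1506, log2 ratios of -1.28 and -0.85, and was thus highest with LPS. It was the dimmest member probe above background, with signals of 163.9, 46.9 and 85.3, it carries another *Hsph1* transcript than the first 2 in the array design, and the LPS spot was uneven, its mean pixel exceeding its median pixel by 0.281 on the log2 scale, where 0.2 was the limit set. Whether the transcript or the spot set this apart was not tested.

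*Hspd1*, the mitochondrial chaperonin HSP60, and *Hspe1*, its lid, which shares the promoter DNA printed above, were near level across the arrays. *Hspd1* had log2 levels of 6.38 for LPS, 6.55 for CRL1505 and 6.46 for CRL1506 by its brightest probe and 3.66, 3.88 and 3.78 by the other. In both probes LPS was lowest and CRL1505 highest as scaled here, by log2 ratios of 0.16 and 0.22 for CRL1505 and 0.08 and 0.11 for CRL1506. By the brightest probe, CRL1505 was above CRL1506 in 1 of the 7 other scalings, with log2 ratios from -0.43 to 0.58. *Hspe1* had log2 levels of 6.55, 6.69 and 6.62 by its brightest probe, log2 ratios of 0.14 and 0.07. Its other probes gave 0.01 and 0.09 for CRL1505 and 0.20 and -0.17 for CRL1506. The ratios of both genes were within the median SD between probes and changed sign with the scaling, *Hspd1* from -0.47 to 0.46 for CRL1505.

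**Figure D3:**
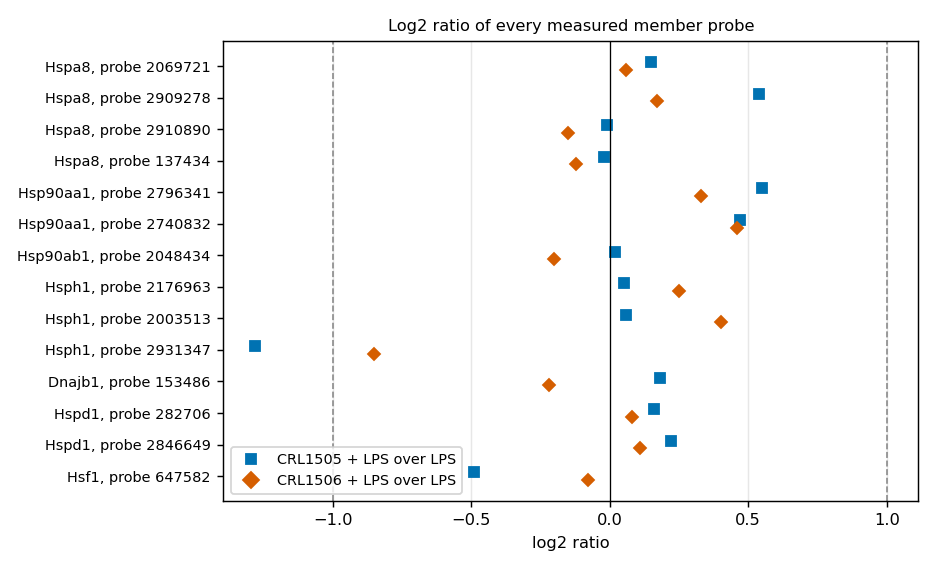
Log2 ratio to LPS of the 14 member probes measured on every array, with squares for CRL1505 + LPS and diamonds for CRL1506 + LPS, the first probe of each gene being the one that represents it, and dashed lines at 2-fold. The third *Hsph1* probe lies at -1.28 and -0.85, both *Hsp90aa1* probes lie between 0.33 and 0.55, and the *Hspa8* probes lie on both sides of 0.

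As a group, none of the 7 measured members was 2-fold higher or lower in any comparison. For CRL1505 against LPS, 9.9% of 15585 genes were higher, 8.41% lower and 18.3% either, for CRL1506 against LPS 5.67%, 3.53% and 9.2% of 16271, and for CRL1505 against CRL1506 8.96%, 7.44% and 16.4% of 15730. With backgrounds of this size few of 7 genes would pass, so the count of 0 says little about the members. The median log2 ratio of the 7 was 0.15 for CRL1505 against LPS and 0.06 for CRL1506 against LPS, beside 0.057 and -0.065 over all genes measured on both arrays. Their median size without sign was 0.16 and 0.20, beside 0.37 and 0.235 over all genes. These sizes were taken in this scaling alone. For CRL1505 against LPS, the members' median log2 ratio was 0.44 under median scaling and -0.48 under spike-in scaling. With CRL1505 6 of the 7 ratios were above 0, *Hsf1* being the exception, but 4 of 7 were above the median of all genes, and under the other scalings the count above 0 ran from 0 with spike-in probes and 3 by quantile and in the deposited table to 6 by the median. With CRL1506 4 were above 0, and 2 to 5 under the other scalings. The 2 comparisons share the LPS array. Between the strains the median was 0.09, and the ratios ran from -0.40 for *Hsf1* to 0.41 for *Dnajb1*. Of the other scalings, only median scaling kept this median above 0, at 0.58, and spike-in scaling made it -0.43. The count of ratios above 0 was 5 as scaled here, 7 under median scaling and 0 under spike-in scaling. It was 1 by quantile, cyclic loess and normexp and in the deposited table.

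**Figure D4:**
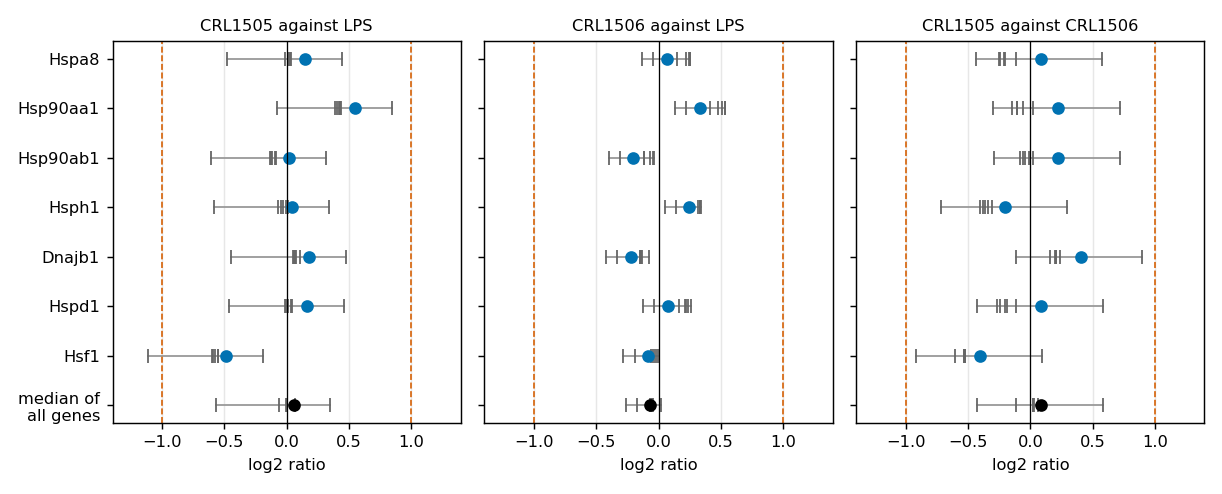
Log2 ratio of each measured member in the 3 comparisons (blue points) and of the median of all genes (black), with grey ticks and lines for the values under 7 other scalings and dashed lines at 2-fold. For CRL1505 against LPS, *Hsf1* is the one member below 0 under every scaling, from -1.12 to -0.19, and for CRL1506 *Hsp90aa1* and *Hsph1* are above 0 throughout.

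The other genes of the chaperone network were listed as 138 genes in 9 lists, of which 117 could be compared for CRL1505 against LPS and 120 for CRL1506 against LPS. With CRL1505, 6 were at least 2-fold higher and 4 lower, 8.55% of those compared beside 18.3% of all genes, and with CRL1506, 0 and 1, or 0.833% beside 9.2%. Between the strains 5 were higher with CRL1505 and 1 lower, 5.08% beside 16.4%. Their median log2 ratios were 0.09 and -0.08. The counts moved with the scaling, from 13 higher and 0 lower by the median to 2 and 15 by spike-in probes for CRL1505 against LPS. Those between the strains were not taken under other scalings. In that comparison the share higher among all genes past 2-fold ran from 16.9% by spike-in probes to 89.1% by the median. Of the 10 genes past 2-fold with CRL1505, those detected on both arrays kept their direction under all 7 other scalings. The ratios of *Dnaja4* and *Cct6b*, each undetected on an array compared, were bounds and could not show a change of direction. No gene of the lists of HSF family, other HSP70 and HSP110 proteins, HSP70 exchange factors or HSP90 cochaperones passed 2-fold by its brightest probe as scaled here. Other probes did, with log2 ratios up to 1.52 for *Hspa4l* and 1.68 for *Cdc37l1* with CRL1506 and down to -1.15 for *Fkbp5* with CRL1505. Other scalings also took some genes past 2-fold with CRL1505, such as *Hspa9* at up to 1.27 and *Fkbp4* at down to -1.28. These genes were named after their values were seen.

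J-domain proteins, which stimulate the ATPase of HSP70, held 6 of the genes past 2-fold with CRL1505, 17.6% of the 34 compared, beside 18.3% of all genes. *Dnajb6*, a J-domain protein that keeps aggregation-prone proteins soluble, had log2 levels of 3.40 for LPS, 5.40 for CRL1505 and 4.25 for CRL1506. It was 4.0-fold LPS with CRL1505 and 1.81-fold with CRL1506, and its 5 probes gave log2 ratios of 0.99 to 2.0 and 0.41 to 0.94. *Dnaja4* was not well above background with LPS and had log2 levels of -3.16 with CRL1505 and -3.91 with CRL1506, at least 2.5-fold and at least 1.49-fold higher. *Dnajc13*, which acts in endosomes, had log2 ratios of 1.19 with CRL1505 and 0.27 with CRL1506 by its brightest probe but 0.57 and 1.0 by the other, so the probes put the strains in opposite orders. *Dnajb14*, *Dnajc22* and *Dnajc9*, the last a histone chaperone, were lower with CRL1505, with log2 ratios of -1.26, -1.22 and -1.11. With CRL1506 the log2 ratios of these 3 were -0.71, -0.11 and -0.19, and the other *Dnajb14* probe gave -1.16.

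Elsewhere *Hspb9*, a small heat shock protein, had log2 ratios of 1.25 with CRL1505 and -0.11 with CRL1506 by 1 measured probe. Its log2 levels were low, at -2.74 for LPS, -1.48 for CRL1505 and -2.85 for CRL1506. Over the other scalings its CRL1505 ratio lay between 0.62 and 1.55. *Lonp1*, the mitochondrial protease that degrades damaged proteins, had log2 levels of 5.03, 6.12 and 5.64, log2 ratios of 1.09 and 0.61. *Cct6b*, a chaperonin subunit, was above background with LPS alone and at least 2.35-fold and 2.57-fold lower with CRL1505 and CRL1506. *Bag3*, an HSP70 exchange factor that is itself induced by HSF1, had log2 levels of 2.37, 3.12 and 2.28, log2 ratios of 0.75 and -0.09. *Stip1*, which bridges HSP70 and HSP90, had log2 ratios of -0.16 and -0.41 by its brightest probe and -0.10 and 0.26 by the other, so its probes disagree in sign for CRL1506. The *Bag3* log2 ratio with CRL1505 lay between 0.12 and 1.04 over the other scalings.

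The chaperones of the endoplasmic reticulum, which the unfolded protein response controls, had a median log2 ratio of 0.12 with CRL1505 and -0.20 with CRL1506. With CRL1505 1 of 18 genes was higher and 0 lower, or 5.56% past 2-fold beside 18.3% of all genes. None was past 2-fold with CRL1506, beside 9.2% of all genes. Between the strains 3 of the 18, or 16.7% beside 16.4% of all genes, were at least 2-fold higher with CRL1505, namely *Dnajb9*, *Hspa5* and *Manf*, the last named after its value was seen, with log2 ratios of 1.52, 1.04 and 1.17. *Dnajb9*, the gene that was higher, had log2 levels of -0.21, 1.98 and 0.46 and was 4.56-fold LPS with CRL1505, a log2 ratio of 2.19, where its other probe gave 1.45. *Hspa5* (BiP) and *Hsp90b1* (GRP94), the counterparts there of HSP70 and HSP90, had CRL1505 log2 ratios of 0.98 and 0.09 and CRL1506 log2 ratios of -0.05 and -0.45. Between the strains the median log2 ratio of the 18 was 0.47, beside 0.09 for the heat shock members and 0.087 for all genes, and no test of these differences was possible with 1 array per group. How the 3 calls and the median of 0.47 move with the scaling was not examined. In this comparison the median of all genes ran from -0.431 under spike-in scaling to 0.583 under median scaling. CRL1505 also lay on a slide of its own.

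**Figure D5:**
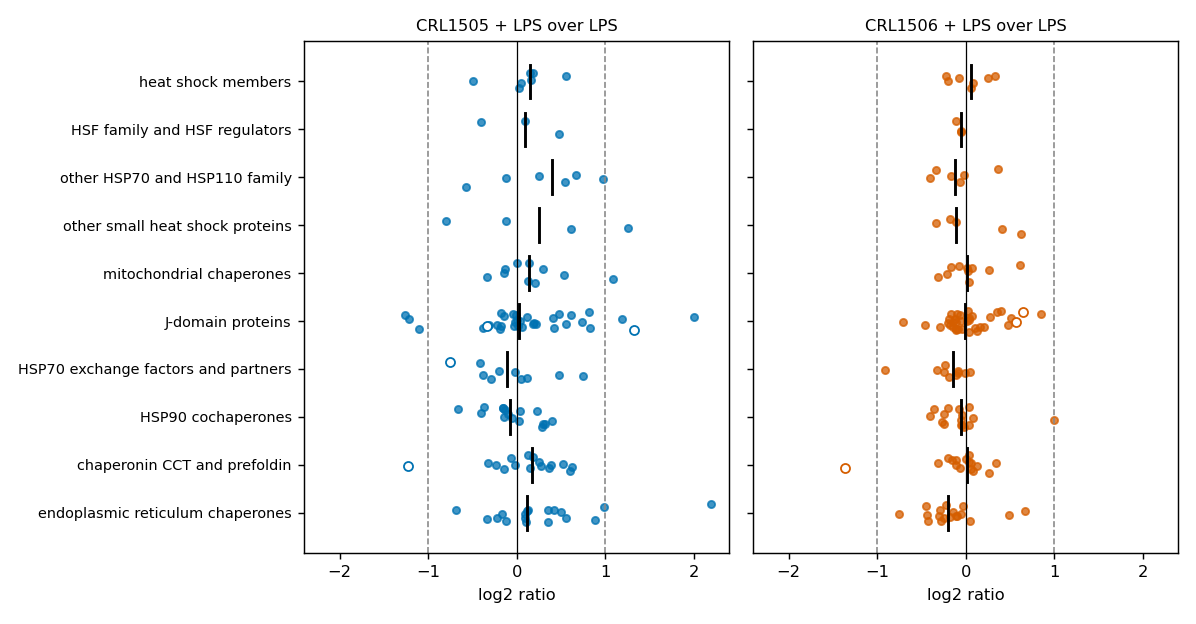
Log2 ratio to LPS of every compared gene in the heat shock members and the 9 other chaperone lists, for CRL1505 + LPS (left) and CRL1506 + LPS (right), with open circles for bounds, black bars for list medians and dashed lines at 2-fold. The heat shock members lie between -0.49 and 0.55 on the left, within the range of the J-domain and endoplasmic reticulum lists, which reach 2.0 and 2.19.

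Among 12992 genes well above background on all arrays and outside these lists, the 3 with ratios to LPS nearest to those of *Hsp90aa1* were *Pcp2*, with log2 ratios of 0.54 and 0.34, *Ptpn22*, a tyrosine phosphatase of immune cells, with 0.57 and 0.33, and *2810403A07Rik*, with 0.57 and 0.34. Their distances from *Hsp90aa1* on the 2 log2 ratios were 0.014, 0.016 and 0.020. With 2 ratios that share the LPS array, such closeness is a description of 3 values per gene.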

How the data were processed

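RNA of 3 groups of RAW 264.7 macrophages, 1 array each, was hybridised to 1-colour Agilent mouse arrays. The authors deposited, for each array, the scanner output of Feature Extraction (12.0.3.1 in the file headers), whose processed signal is an intensity after subtraction of the local background and of a spatial trend, and a table of log2 values normalized between arrays by a method not given in the sources used here. The intensities were put on the log2 scale, and each array's 75th percentile was subtracted. Control spots and outlier spots were left out, the probe with the highest mean level represented its gene, and a ratio with an undetected side became a bound, with the higher of the probe's own level and the dimmest detected level of that array in its place. Groups came from the sample titles. With 1 array per group the methods of limma gave normalization only and no test was run.

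The members and the 9 lists were chosen with earlier results of these data known. Every member and probe was named, as were all listed genes past 2-fold with either strain, *Hspe1*, *Hspa5*, *Hsp90b1*, *Bag3*, *Hsf2* and *Stip1*, and the 3 genes nearest in pattern to the member with the largest ratio. Alternatives were other scalings (median, quantile, cyclic loess, normexp with an offset of 50 then quantile, the deposited log2 table, the 75th percentile of probes detected on all arrays, spike-in probes), dim-probe filters, the mean over probes, spot flags, and thresholds of 1.5-fold and 4-fold. The deposited table had a median of 6.77 in every column and correlated with the log2 processed signals of the same array at r = 0.995 to 0.996 across spots, with slopes of 0.89 to 0.91, so its scale is log2 of the signal in the same direction, and its centring steps stay unknown. The ratio calculation was tested on simulated data, in which bright genes were changed by more than 2-fold. The noise was that of repeated spots and every array had the background flags of LPS. Bounds, smaller changes and the spread between cultures were therefore not tested. Python 3.11.15, pandas 2.3.3, NumPy 2.4.6, R 4.3.3 and limma 3.58.1 were used. Sequences of promoters come from RefSeq on GRCm38 and probe positions, on mm9, from the file headers and columns. The number of arrays limits the precision.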

Additional observations from a re-analysis of the deposited data

How the results depend on the processing

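No member passed 2-fold in any comparison, so none could pass 4-fold, and a threshold of 1.5-fold also gave 0. *Hsp90aa1*, at 1.47-fold for CRL1505 against LPS, lay just below 1.5-fold, and with a log2 ratio of 0.85 under median scaling it was past it. Scaling by the median of gene spots moved the members' median log2 ratio to 0.44 for CRL1505 against LPS and 0.58 for CRL1505 against CRL1506, scaling by spike-in probes moved these to -0.48 and -0.43, and the deposited table moved the latter to -0.25. Spike-in scaling put 1 member, *Hsf1*, past 2-fold lower with CRL1505 against LPS. Without the filter on dim probes 1 member (*Hspb1*) was higher for CRL1505 against LPS and 2 (*Hspb1* and *Hspa1b*) for CRL1505 against CRL1506. The wider lists had 6 genes higher and 4 lower with CRL1505, which became 13 and 0 by the median and 2 and 15 by spike-in probes, with 3 higher in the deposited table. With CRL1506 the 0 higher became 1 by quantile, cyclic loess and the deposited table, and the 1 lower became 2 by the median, quantile, cyclic loess and spike-in probes and 0 in the deposited table. Of 252 member ratios under the alternatives, 215 moved by less than the median SD between probes of a gene and 37 by more, 14 of 21 under median scaling, 14 under spike-in scaling, 3 in the deposited table and 2 each under quantile, normexp and the mean over probes. The dim-probe filters and the spot flags left all 21 ratios the same and could not move them. The probes that represent the 7 measured members had no outlier or uneven spot and were above background on every array. Over all genes, spike-in scaling gave 700 higher and 4021 lower for CRL1505 against LPS and 664 and 3269 for CRL1505 against CRL1506, median scaling 2410 and 758, and 3497 and 430, normexp 992 and 748, and 921 and 555, and the deposited values 986 and 776, and 909 and 575, beside 1543 and 1310, and 1409 and 1170. The 75th percentile of detected probes gave 1033 and 1804 for the latter comparison. For CRL1506 against LPS, 922 and 575 became 669 and 873 by the median, 426 and 324 by normexp and 416 and 290 with the deposited values. No paired analysis was possible because each group had 1 array, and the slide could not be fitted as a block. What limits the undetected genes is the signal over background: *Hspa1a*, *Hspa1b* and *Hspb1* lay below it on every array.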
